A study of Arabidopsis thaliana with 6 samples.

Results

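AT5G01080 and AT4G29200 are 2 protein-coding loci of Arabidopsis thaliana whose transcripts were more than 100-fold higher in flower buds of the chromatin mutant ddm1 than in wild type buds. They were chosen by that measured rise on these same arrays, from 13286 genes that had a probe set of their own on the array, and each is read by 1 probe set that names no other gene (251127_at for AT5G01080 and 253707_at for AT4G29200). Unopened flower buds were profiled from ddm1 plants in inbred generation 6 and from wild type plants of the Columbia (Col) accession, with 3 biological replicates for each of the 2 genotypes and 1 array for each replicate. The labels name neither the ddm1 allele nor the number of plants in a replicate, and they give an inbred generation for ddm1 alone, so loss of DDM1 and the inbreeding history cannot be told apart. The labels name no treatment, and growth was on soil at 23 °C under a day length of 18 hours for both genotypes.

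DDM1 is a chromatin remodelling protein that lets DNA methyltransferases reach DNA packed with linker histone. Without it, methylation is lost from heterochromatin, and many transposable elements, together with some genes that are kept silent by methylation, become transcribed. Beta-galactosidases cut galactose from the ends of sugar chains, for example in plant cell walls. Both loci carry the working description beta-galactosidase-related. The RefSeq gene table used here lists them by locus number alone, so this description was not checked, and the 2 genes are called by their locus numbers below.

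The loci lie on different chromosomes and differ in size. AT5G01080 is place 12 of the 8420 RefSeq loci of chromosome 5, close to the start of the chromosome, and its gene model spans 555 bases. AT4G29200 is place 4428 of the 5842 loci of chromosome 4, and its gene model spans 2145 bases. No other RefSeq locus overlaps either of them (assembly TAIR10.1).

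The deposited values are log2 expression values shifted for each probe set to a baseline, so that they show differences between arrays and not levels. AT5G01080 read 1.07, 1.03 and 1.00 in ddm1 replicates 1, 2 and 3, against -6.65, -6.64 and -6.57 in wild type replicates 1, 2 and 3. The 3 ddm1 arrays lay far above the 3 wild type arrays, and within each genotype the arrays lay within 0.0695 (ddm1) and 0.0715 (wild type) of each other. AT5G01080 averaged 1.03 ± 0.04 in ddm1 and -6.62 ± 0.04 in wild type on this log2 scale (SD, n = 3 each). The log2 difference was 7.65 ± 0.04 (standard error, SE, of the limma fit), a 201-fold rise, and single ddm1 arrays exceeded single wild type arrays by 191-fold to 210.4-fold.

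AT4G29200 read 6.87, 7.04 and 7.06 in ddm1 replicates 1, 2 and 3, against -0.02, -0.01 and 0 in wild type. Here too the genotypes did not overlap, and the ddm1 arrays spread more widely than the wild type arrays, over 0.190 against 0.0198. AT4G29200 averaged 6.99 ± 0.11 in ddm1 and -0.01 ± 0.01 in wild type (SD, n = 3 each). The log2 difference was 7.00 ± 0.06 (SE), a 128-fold rise, with single pairs of arrays between 117-fold and 135-fold. Groups that do not overlap were common on these arrays, at 27.2% of all probe sets, and here the choice of the genes fixed that outcome. Because the genes were picked for this difference, its size is a description and carries no test.

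**Figure D1:**
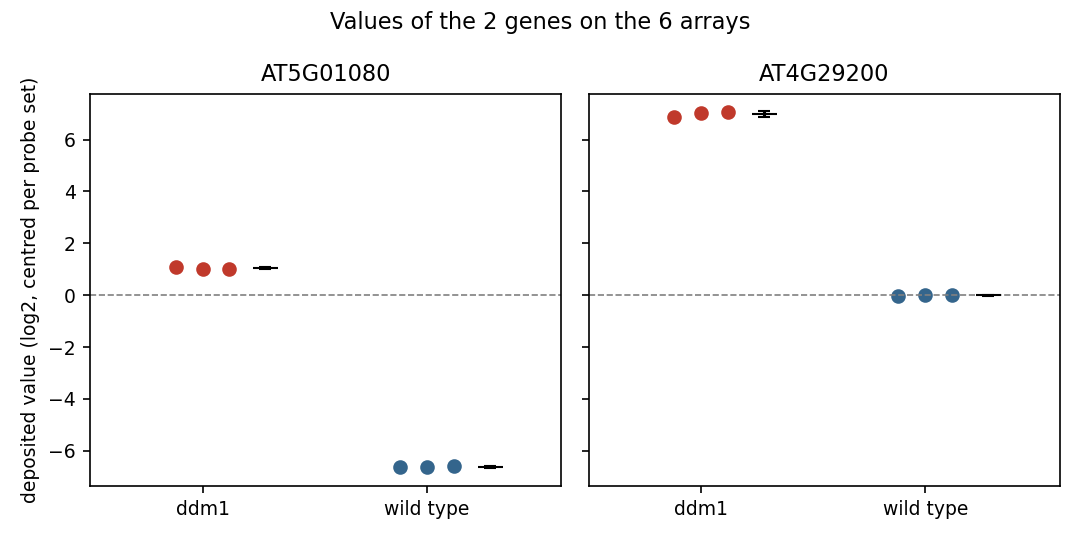
Deposited log2 values, centred per probe set, of AT5G01080 and AT4G29200 on each array, with ddm1 left of wild type. Points are the 3 arrays of a genotype, the bar beside them is their mean ± SD, and the dashed line is the baseline. AT5G01080 lies between 1.00 and 1.07 in ddm1 and at -6.57 or lower in wild type, and AT4G29200 lies between 6.87 and 7.06 in ddm1 and within 0.02 of the baseline in wild type.

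Among the 12443 probe sets of single protein-coding genes, AT5G01080 had the 6th and AT4G29200 the 9th highest log2 difference. Only 9 of these probe sets, or 0.0723%, rose more than 100-fold. AT4G29200 was the last of them, and the genes just above it were AT2G15560 (133-fold higher) and AT5G03090 (175-fold higher). Just outside the limit stood AT5G15690 (85.7-fold), AT1G20400 (70.7-fold) and AT2G13770 (58.6-fold). Such rises were more common at loci that RefSeq types as pseudogenes, which in this species include the annotated genes of transposable elements, and where 61 of 923 probe sets, or 6.61%, rose more than 100-fold. Of these pseudogene-type probe sets, 40 rose further than AT5G01080 and 51 further than AT4G29200. The centred values do not show whether a gene lay above background in wild type, and a GCRMA difference is uncertain where a signal is dim. Either rise may therefore be understated or overstated, and the order of the 2 genes is open.

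The spread among replicates was small beside both rises. The SD of AT5G01080 among ddm1 arrays, 0.0351, was larger than that of 28.5% of protein-coding probe sets, and the SD of AT4G29200, 0.105, was larger than that of 62.7%. The median over protein-coding probe sets was 0.0734 in ddm1 and 0.0631 in wild type. Among wild type arrays AT4G29200 was flatter than most genes, with an SD of 0.00989, and 88.3% of protein-coding probe sets varied more. The centred values do not show whether AT4G29200 lay above background there, so this SD need not measure how steady its expression was. AT5G01080 had a wild type SD of 0.0399. Neither gene was the tightest of the 9 that rose more than 100-fold, since the SDs of the other 7 ran from 0.0299 to 0.249 in ddm1 and from 0.00694 to 0.342 in wild type.

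The 2 genes differed in where the baseline fell between the genotypes. At AT5G01080 the baseline lay inside the gap, with 86.5% of the log2 difference below it, so that wild type read far under 0 and ddm1 slightly over it. At AT4G29200 only 0.138% of the difference lay below the baseline, and wild type replicate 3 read exactly 0. In the other 7 genes that rose more than 100-fold, 42.7% to 75.5% of the difference lay below the baseline, and in all 7 every wild type array was under 0 and every ddm1 array over it. AT4G29200 was thus the 1 gene of the 9 with the baseline at its wild type value, and AT5G01080 the 1 with the baseline nearest to its ddm1 value. Just outside the 100-fold limit, AT2G13770 was placed like AT4G29200, with 0.397% of its difference below the baseline. AT2G13770 is read by an _s_at probe set, a type that can detect several related transcripts. AT1G59930, 1 of the 9, is read by an _x_at probe set, also not a plain _at one. A baseline near the wild type value also occurred among weaker rises. For the placement of AT5G01080 the count of weaker rises used over 50% below the baseline, a looser limit than its 86.5%. Of the 76 protein-coding probe sets called higher with a rise of 2-fold to 100-fold, 14 had the baseline within 5% of the difference from the wild type mean and 14 had over 50% of the difference below it. For the 151 pseudogene-type probe sets in the same range the counts were 57 and 4. The arrays behind the baseline are not named in the labels or the file.

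**Figure D2:**
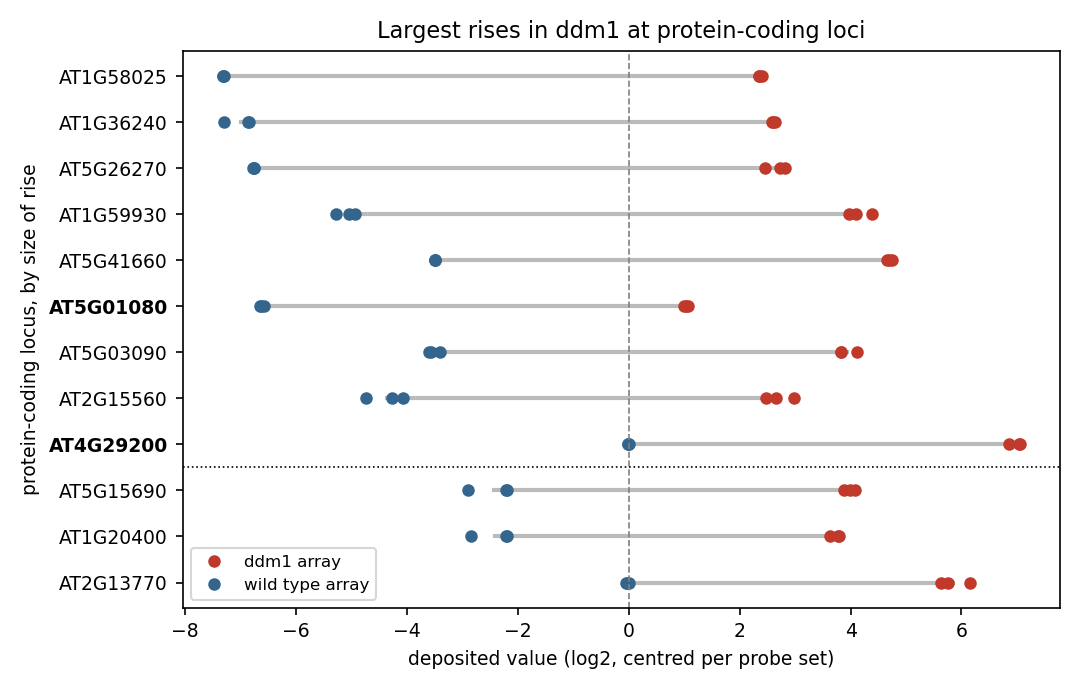
Deposited log2 values, centred per probe set, on each ddm1 array (red) and wild type array (blue) for the 9 protein-coding loci that rose more than 100-fold and, under the dotted line, the next 3, in order of the rise; grey bars join the group means and the dashed line is the baseline. AT5G01080 and AT4G29200 are in bold. AT4G29200 and, under the dotted line, AT2G13770 have their wild type arrays on or close to the baseline. AT5G01080 has its wild type arrays near -6.6 and its ddm1 arrays near 1.03.

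The search for the profiles most like each gene was limited to probe sets of single protein-coding genes, and the closest had large rises too. Likeness was the Euclidean distance over the 6 arrays after the wild type mean of each probe set was subtracted, in log2 units. AT5G03090 was nearest to AT5G01080 at a distance of 0.430, followed by AT5G41660 at 0.935, AT4G29200 itself at 1.16, AT2G15560 at 1.17 and AT5G15690 at 2.21. For AT4G29200 the nearest was AT2G15560 at 0.696, followed by AT5G03090 at 0.893, AT5G15690 at 1.15, AT5G01080 at 1.16 and AT1G20400 at 1.57. Among protein-coding probe sets AT4G29200 thus took place 3 on the list of AT5G01080, and AT5G01080 took place 4 on that of AT4G29200. Pseudogene-type probe sets were not ranked for likeness. With 6 arrays in 2 genotypes this distance mostly reflects the size of the rise. AT5G15690 is read by an _s_at probe set, a type that can detect several related transcripts.

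The next comparison asks whether the loci beside the 2 genes also changed in ddm1. They did not follow the genes: none of the 15 measured loci within 10 places on either side rose past the threshold, and their log2 differences ran from -0.80 to 0.19. By limma with Benjamini-Hochberg adjustment over all 22746 probe sets, 0 of the 15 were called higher and 1 was called lower at an adjusted p under 0.05, and 2 had an unadjusted p under 0.05. Over all probe sets 3.50% were called higher, 5.68% were called lower, and 23.1% had an unadjusted p under 0.05. The median difference of the 15 was -0.05, beside 0.00 over all probe sets. The other 25 loci in these places were not measured by a probe set of their own, so a rise there would not show.

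Around AT5G01080, 9 of 20 loci were measured, and by limma 0 were called in either direction and 0 had an unadjusted p under 0.05. The locus directly before it, AT5G01075, read -0.89, 0.04 and -0.22 in ddm1 replicates 1, 2 and 3, against -0.14, 0.12 and -0.02 in wild type. The genotypes overlapped, and the difference of -0.35 ± 0.25 (SE) was not called (limma adjusted p = 0.489). AT5G01070, which lies 2 places before, differed by 0.01 ± 0.03 (limma adjusted p = 0.861). AT5G01090, which lies 2 places after, differed by 0.14 ± 0.05 (limma adjusted p = 0.219). The other measured loci within 10 places differed by -0.17 to 0.19. Without ddm1 replicate 2, AT5G01030, the locus with the value of 0.19, was called higher (0.35 ± 0.06, limma adjusted p = 0.0423).

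Around AT4G29200, 6 of 20 loci were measured. Of these, 5 had a lower mean in ddm1 and 1 a higher mean, and limma called 1 of them lower. Within 20 places, 7 probe sets had a lower mean and 6 a higher mean, so the wider span showed no common direction. The nearest measured locus was ATMND1, a gene known for meiotic recombination, which lies 3 places before. ATMND1 read -0.02, -0.13 and 0.00 in ddm1, against 0.00, 0.08 and 0.02 in wild type. The genotypes lay close together without overlapping, and the difference of -0.09 ± 0.05 (SE) was not called (limma adjusted p = 0.342). AT4G29250, which lies 5 places after, was the 1 neighbour called. It read -0.44, -0.64 and -0.70 in ddm1, against 0.28, -0.05 and 0.38 in wild type. The genotypes did not overlap, and AT4G29250 fell by 0.80 ± 0.13 on the log2 scale (limma adjusted p = 0.0243). AT4G29250 was no longer called when wild type replicate 1 or 3 or ddm1 replicate 2 or 3 was left out (limma adjusted p = 0.0899, 0.0673, 0.0757 and 0.0801), or when variances were not moderated (0.09635).

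The count of pseudogene-type loci next to both genes was the usual one for a measured protein-coding gene. The class leaves out the separate RefSeq type transcribed pseudogene. Of the 20 loci within 10 places of each gene, 0 were of the pseudogene type, as for 68.4% of the 12224 protein-coding genes measured. The other 7 genes that rose more than 100-fold had 0 to 11 such loci in the same span, with a median of 2. AT1G36240 had the 11. AT1G59930 and AT5G03090 had 0, like AT5G01080 and AT4G29200. Of the transcribed pseudogenes, AT4G29276 and AT4G29281 lie 9 and 11 places after AT4G29200, and neither was measured.

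The nearest pseudogene-type loci were farther off and differed between the 2 genes. For AT4G29200 the nearest, transcribed pseudogenes aside, was AT4G28970, which lay 32 places before and was not measured. The next, AT4G28960, lay 33 places before and rose strongly. AT4G28960 read 3.21, 2.82 and 3.14 in ddm1, against -4.99, -4.68 and -4.66 in wild type, a log2 difference of 7.83 ± 0.14 (SE, limma adjusted p = 3.6e-06). It is read by an _s_at probe set, so the value may combine transcripts of related loci. A second measured pseudogene-type locus, AT4G28900, lay 40 places before AT4G29200 and differed by 0.01 ± 0.03 (limma adjusted p = 0.920). Between AT4G28960 and AT4G29200 lie 32 loci, of which 11 were measured, and these differed by -0.45 to 0.26. By limma 1 of the 11 was called higher and 0 lower, and 4 had an unadjusted p under 0.05. The shares over all probe sets were 3.50% higher, 5.68% lower and 23.1% at an unadjusted p under 0.05. The called locus, AT4G29120, was singled out after its value was seen and differed by 0.14 ± 0.03 (limma adjusted p = 0.0478). The measured loci between AT4G28960 and AT4G29200 thus differed by less than 2-fold, and the other loci of the stretch were not measured.

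For AT5G01080 the nearest pseudogene-type locus, AT5G01185, lay 15 places after and was not measured. The nearest measured one, AT5G04650, lay 461 places after. AT5G04650 read 0, 0.11 and 0.15 in ddm1, against -0.03, 0 and 0.07 in wild type, and its difference of 0.08 ± 0.05 (SE) was not called (limma adjusted p = 0.486).

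**Figure D3:**
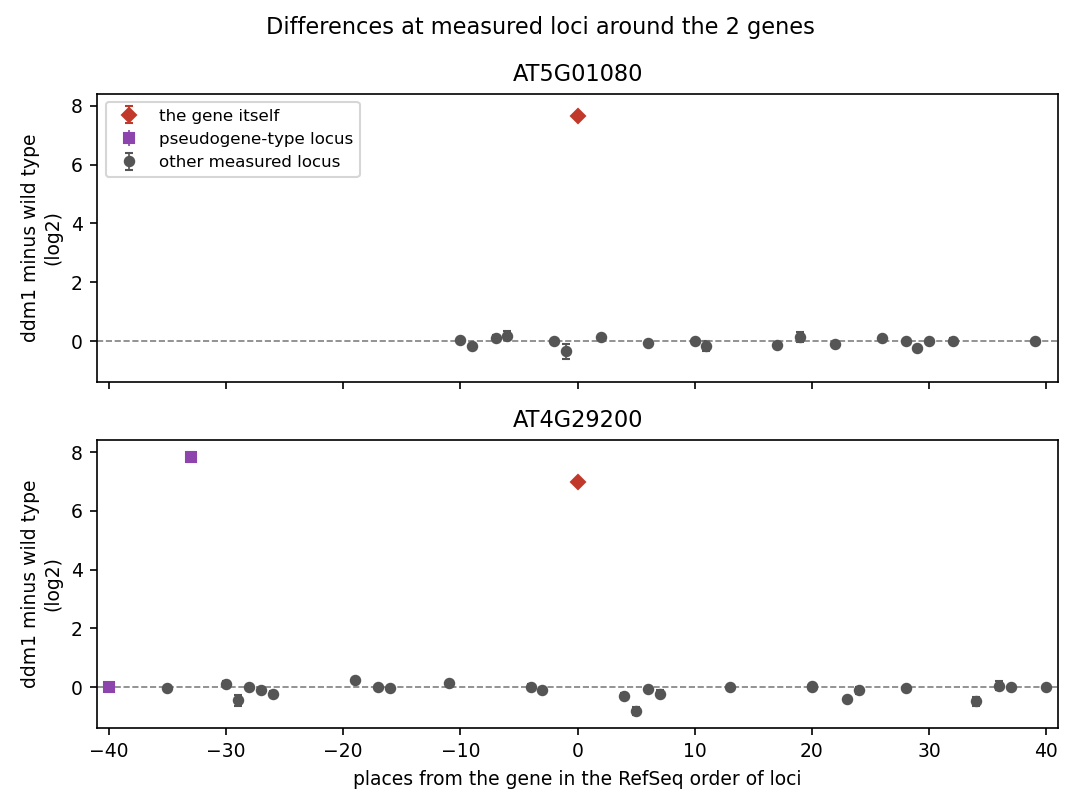
Log2 difference of ddm1 from wild type, with the SE of the limma fit, at each measured locus within 40 places of AT5G01080 (upper panel) and AT4G29200 (lower panel), plotted by its place in the RefSeq order. Diamonds are the 2 genes, squares pseudogene-type loci and circles other loci. The 2 genes stand at 7.65 and 7.00, AT4G28960 stands at 7.83 at 33 places before AT4G29200, AT4G28900 stands at 0.01 at 40 places before it, and the measured loci within 10 places of either gene lie between -0.80 and 0.19.

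Other genes of galactose metabolism could hardly be compared, since few had a probe set of their own. Of the 17 members of the beta-galactosidase family (BGAL1 to BGAL17), 1 was measured, and it moved opposite to the 2 genes. BGAL16 read -0.95, -1.20 and -0.57 in ddm1, against 0.28, 0.09 and 0.13 in wild type. The genotypes did not overlap, and BGAL16 fell by 1.07 ± 0.17 on the log2 scale (SE, limma adjusted p = 0.0208). BGAL16 was no longer called when wild type replicate 1, 2 or 3 or ddm1 replicate 1 was left out (limma adjusted p = 0.0792, 0.0604, 0.0670 and 0.06595), or when variances were not moderated (0.0889). Of 12 genes for galactan synthesis, alpha-galactosidases, galactokinase and UDP-glucose epimerases, 1 was measured. This was AT3G56310, with a difference of 0.04 ± 0.09 (limma adjusted p = 0.867). Of these 2 measured genes, 1 from each list, limma called 0 higher and 1 lower, and 1 had an unadjusted p under 0.05. Among all probe sets the shares were 3.50% higher, 5.68% lower and 23.1% at an unadjusted p under 0.05. With 2 genes these counts say little about either list.

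Some markers of other cell types differed between the genotypes in these buds, on lists chosen with earlier results of these data known. Of 10 pollen genes 5 were lower and 0 higher by limma, with 6 at an unadjusted p under 0.05. The 10 log2 differences ran from -3.61 (AtVEX1) to 0.03 (ACT11). Over all probe sets 5.68% were called lower, 3.50% were called higher, and 23.1% had an unadjusted p under 0.05. The median log2 difference of the pollen genes was -0.69, and their mean centred value ran from -1.05 to -0.83 over the ddm1 arrays and from 0.01 to 0.07 over the wild type arrays. Of 3 photosynthesis genes, which mark green tissue, 1 was higher and 0 lower by limma, and all 3 had an unadjusted p under 0.05. Their median log2 difference was 0.35, and their mean centred value ran from 0.17 to 0.28 in ddm1 and from -0.12 to -0.04 in wild type. The part of these shifts in the rises of AT5G01080 and AT4G29200 was not tested. In whole buds fewer cells of a type and less RNA per cell cannot be told apart. Of 9 floral identity genes only UFO, a regulator of petal and stamen identity, was measured (0.00 ± 0.03, SE), and centred values do not show whether markers of the labelled tissue were expressed.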

How the data were processed

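Biotin-labelled RNA from 3 ddm1 and 3 wild type bud samples was hybridised to 1-colour arrays, 1 per sample. Per the submitters' processing notes the authors computed the expression values with GCRMA, whose version is not stated there. The deposited numbers are taken as log2, a base inferred from GCRMA and from their range of -10.0 to 8.57. Each probe set is centred on a baseline other than the median of these 6 arrays: 83.7% of probe sets hold an exact 0, and array medians ran from -0.00642 to 0.0175. Signal over background is therefore unknown, and the number of arrays limits the precision.

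The table held 22810 probe sets, of which 64 controls were left out. Of the remaining 22746, the array annotation named 1 gene for 13513 and several for 503, and 8730 were unnamed here. RefSeq (TAIR10.1) matched 13436 probe sets by gene number, which gave gene types and the order of loci. No coordinates are given, since neither the labels nor the file names the build used for the array.

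Differences are ddm1 minus wild type from limma 3.58.1 (R 4.3.3, lmFit and eBayes, genotype as the only term), two-sided, Benjamini-Hochberg adjusted over the 22746 probe sets and called under 0.05. The fit was tested on simulated data. Python 3.11.15 with pandas 2.3.3 and matplotlib 3.10.9 made counts and figures. Named were the 2 genes, measured loci within 3 places and called loci within 10, called list members and the 3 uncalled ones furthest from 0, the 5 most alike probe sets, and 3 probe sets on each side of the 100-fold limit. The third one inside the limit is AT4G29200 itself. Distances to pseudogene-type loci were added later. The members, lists and rules were chosen with earlier results of these data known. Alternatives left out each array, added a replicate block, centred arrays on their medians, changed the variance model, the span of places or the probe sets. No sequences were analysed here.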

Additional observations from a re-analysis of the deposited data

How the results depend on the processing

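The differences of both genes moved by less than the SD of their ddm1 arrays (0.0351 and 0.105) under every alternative run for them. Leaving out 1 array gave 7.63 to 7.68 for AT5G01080 and 6.96 to 7.06 for AT4G29200. At AT4G29200 the largest move exceeded its wild type SD of 0.00989. With 1 array left out AT5G01080 kept rank 6 and AT4G29200 took rank 8 or 9. Among plain _at probe sets, which leave out AT1G59930 at rank 4, they took ranks 5 and 8. Over all probe sets, the 6 fits on 5 arrays called 432 to 788 higher and 629 to 1011 lower, beside 795 and 1291 on 6 arrays, with 0 to 1 higher and 0 to 1 lower neighbours, and 0 to 1 lower genes in the galactose lists. With variances left unmoderated 373 were called higher and 429 lower, with 0 lower neighbours and 0 lower galactose genes. Within 20 places 1 locus was higher, more loci being counted. With a replicate block 433 were higher and 553 lower, with 0 lower neighbours and 0 lower galactose genes (AT4G29250 adjusted p = 0.0751, BGAL16 0.0729), and the differences of both genes were as without it. The deviations of arrays that share a replicate number had correlations of 0.0752, 0.0900 and 0.0159. For arrays with unlike numbers they ran from -0.0907 to 0.0229, so 0.0752 and 0.0900 lay above all of those. All are small, and they do not settle whether equal numbers are pairs. The main fit does not pair the arrays, and the replicate block does. Of 90 values for 9 named loci, 78 stayed on the same side of the threshold and 12 lost a call, all at AT4G29250 or BGAL16. Not every named locus is among the 9: AT5G01030, which gained a call without ddm1 replicate 2, and AT4G29120 are left out. How the call of AT4G29120 fared under the alternatives is not reported here. The planned protein search for relatives was not run. For the other changes the cause was not tested.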
